A study of Rattus norvegicus with 12 samples.

Results

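A kidney tissue rebuilt in culture was compared with the rat kidney of embryonic day 18 (E18) over all genes of an Affymetrix array. The rebuilt tissue, called recombined tissue here, put unbranched ureteric buds, themselves grown in vitro, together with metanephric mesenchyme and was then kept in culture for 6 days. It was measured on 2 arrays and the E18 kidney on 4, chosen by their labels out of 12 arrays in all; the other 6 hold kidneys of embryonic day 13 (E13, n = 3) and of 4 weeks after birth (Wk4, n = 3). The E18 kidneys were processed straight after dissection, and no strain, sex, litter or genotype is given for either group. Culture, buds formed outside the embryo and age differ together between the groups and cannot be told apart. The design asks whether such tissue goes through the normal stages of development.

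The kidney forms from a pair of tissues that instruct each other. The ureteric bud is an epithelial outgrowth that branches into the collecting ducts, and the metanephric mesenchyme around its tips turns into epithelium under Wnt signals and makes the nephron, from the podocytes of the glomerulus through the proximal tubule and the loop of Henle to the distal tubule. Stroma, vessels and macrophages lie between these epithelia, and the vessels bring the blood. A recombination in culture has no circulation.

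Each array gave a signal, the scanner software's brightness on a linear scale, for 31042 probe sets. A difference is recombined minus E18 on the scale log2(signal + 271), given with its standard error from limma, a linear model fitted over all 12 arrays. A call required an adjusted p below 0.05 together with a change of 3-fold or more, the fold in the study's design. For a gene, array values are listed as recombined replicates 1 and 2 and as E18 replicates 1 to 4, in that order. Whether the replicates are separate animals or cultures is not stated in the labels, and p-values therefore measure a spread that may be technical. In these bulk samples, fewer cells of a type and less RNA per cell cannot be told apart.

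Of 22599 probe sets kept above a floor on low signal, 995 were called, a share of 4.4%. Of these, 618 were higher in recombined tissue (2.73% of those kept) and 377 lower (1.67%). Without the fold limit, an adjusted p below 0.05 held in 6372 of the 22599, 2868 of them higher and 3504 lower. Lower probe sets were thus the more numerous by adjusted p alone, and higher ones among the calls. Counts by adjusted p alone in the lists below stand against that background. The median difference over all kept probe sets was -0.0012. Both recombined arrays lay above all 4 E18 arrays in 611 of the 618 higher calls. In 377 of the 377 lower calls both lay below them. Over all kept probe sets such separation held in 21.0% and 23.2%. The calls were chosen on these same arrays, so their separation follows largely from the choice and adds no support to them. The E18 signal of 234 higher calls lay below the 40th percentile of its array on all 4 arrays, and the recombined signal of 184 lower calls did so on both, so those folds rest on a dim side with no detection call. By gene, taking the brightest probe set, 365 were higher and 280 lower. Of 190 further kept probe sets of these genes, 187 moved the same way and 0 were called the opposite way.

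Each recombined array was also taken alone. Replicate 1 differed from the E18 mean by at least 3-fold in 797 probe sets upward and 510 downward, and replicate 2 in 571 and 376. Both arrays passed that fold together in 439 upward and 268 downward, and 0 probe sets passed it in opposite directions. For scale, a single E18 array differed from the mean of the other 3 by that much in 4 to 70 probe sets, most in E18 replicate 4. The recombined arrays themselves were at least 3-fold apart in 223 probe sets, against 17 to 159 between pairs of E18 arrays. Among the 645 called genes 36 had such a gap: 29 were higher calls brighter on replicate 1, and 7 were lower calls dimmer on replicate 1. Replicate 1 was the array farther from E18 in all 36. The widest gap was that of the chemokine gene Ccl7, at 9807 and 518, against 104, 213, 52.3 and 206 in E18, and its difference of 2.79 ± 0.66 was 0.95 and not called without replicate 1.

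**Figure D1:**
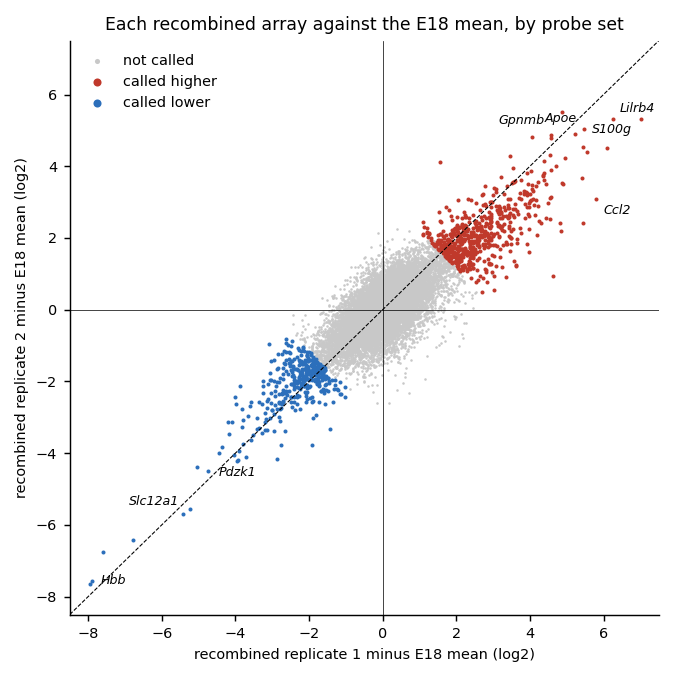
Difference of recombined replicate 1 (x axis) and replicate 2 (y axis) from the E18 mean, in log2, for each of 22599 kept probe sets; red points were called higher (618), blue points called lower (377), and the dashed line marks equal values. Called points lie in the upper right or lower left, and no probe set is 3-fold up on one array and 3-fold down on the other.

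Functions were described with 37 gene lists, which held 799 kept genes, 83 of them in more than 1 list. They took in 129 of the 365 higher genes and 89 of the 280 lower genes. A list is described by how many of its kept genes were called and by its median difference, beside the shares and the median of all kept probe sets given above. Being kept took 2 arrays of any group, so a gene could enter through the recombined arrays alone, or through E18 arrays alone. This shapes the number of kept genes. Without the filter, higher calls were 29 of 36 macrophage and 15 of 36 chemokine genes. They were 5 of 25 for matrix proteases, 4 of 22 for muscle, cartilage and bone, and 0 of 20 for lymphocytes and granulocytes.

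**Figure D2:**
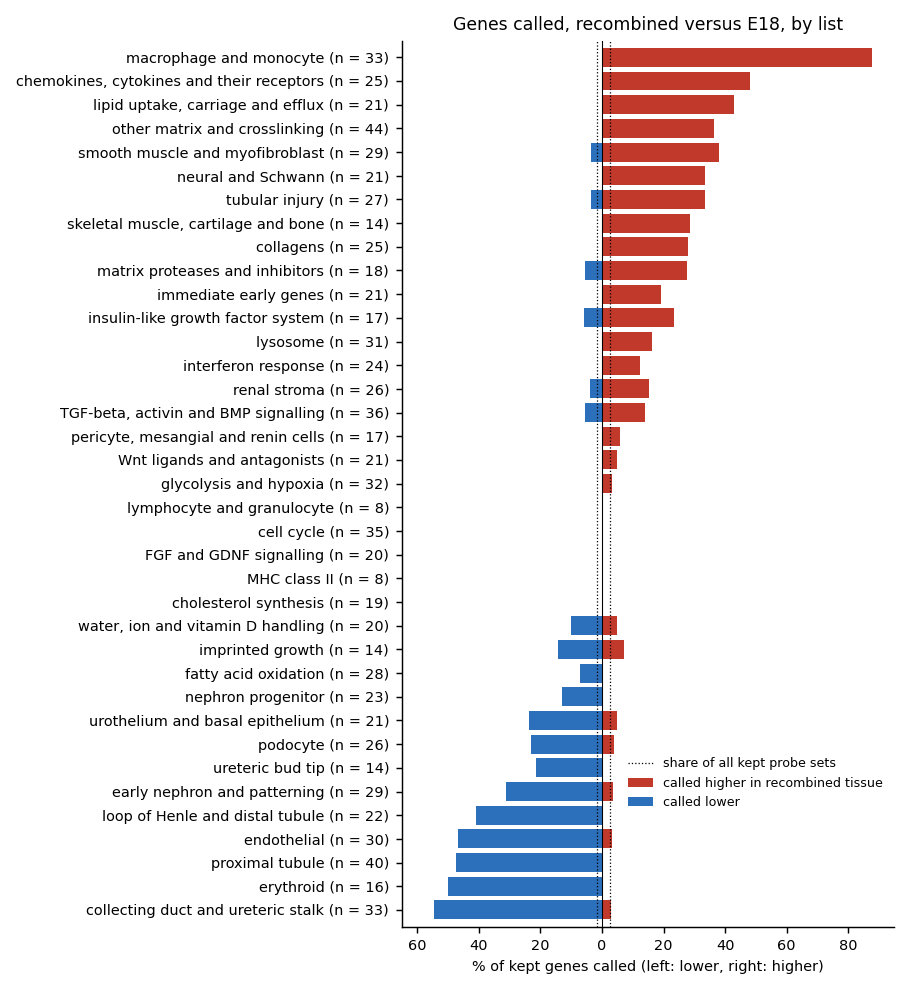
Share of each list's kept genes (n beside its name) called higher (red, to the right) or lower (blue, to the left) in recombined tissue against E18, in percent; dotted lines mark the shares of all kept probe sets, 2.73% and 1.67%. The macrophage list reaches 87.9% on the right and the collecting duct list 54.5% on the left.

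Genes of macrophages, the phagocytes that settle in the kidney from early development, formed the list with the greatest share of higher calls. Of 33 kept genes 29 were called higher and 0 lower, with a median difference of 2.75. Their summed signal was 618473 and 375058 on the recombined arrays and 44571 to 52828 over the E18 arrays, 10.6 times the E18 mean on average. Recombined replicate 1 was the brighter array in 32 of the 33 genes, against 44.5% of all kept probe sets, and the list medians on the arrays alone were 3.29 and 2.21.

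The promoters of 3 called macrophage genes are shown because they share a short motif that the myeloid transcription factor PU.1 is known to bind. They come from RefSeq (build GRCr8), run from 250 bases before to 50 after the start of the gene, and are written 5′ to 3′ on the gene's strand with the motif in capitals. Fcgr3a, an activating receptor for antibodies, lies on the plus strand with its window at chr13:85782386-85782685. Cd53, a tetraspanin of leukocytes, lies on the minus strand at chr2:197087847-197088146. Ctss, the protease cathepsin S, lies on the plus strand at chr2:185775146-185775445.
Fcgr3a: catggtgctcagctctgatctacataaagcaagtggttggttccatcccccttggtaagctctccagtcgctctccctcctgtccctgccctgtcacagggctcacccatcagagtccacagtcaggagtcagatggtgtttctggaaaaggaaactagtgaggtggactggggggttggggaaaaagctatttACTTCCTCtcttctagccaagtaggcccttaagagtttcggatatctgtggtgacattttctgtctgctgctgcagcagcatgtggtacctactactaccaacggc
Cd53: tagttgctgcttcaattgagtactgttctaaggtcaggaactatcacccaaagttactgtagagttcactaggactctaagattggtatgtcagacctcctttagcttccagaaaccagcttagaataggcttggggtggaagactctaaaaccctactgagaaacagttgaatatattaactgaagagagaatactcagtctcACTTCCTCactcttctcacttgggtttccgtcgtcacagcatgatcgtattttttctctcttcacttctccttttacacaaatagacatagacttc
Ctss: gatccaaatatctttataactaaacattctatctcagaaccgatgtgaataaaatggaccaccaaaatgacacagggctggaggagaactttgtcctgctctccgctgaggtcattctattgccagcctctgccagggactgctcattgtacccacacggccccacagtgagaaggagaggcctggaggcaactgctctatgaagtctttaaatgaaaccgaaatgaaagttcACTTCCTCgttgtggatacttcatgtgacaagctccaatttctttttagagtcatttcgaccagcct
The letters searched were GAGGAAGT on either strand, and all 3 matches read as the other strand of it, starting at -56, -46 and -17 from the start. The motif was found in 3 of the 22 called macrophage members that had a promoter in the table, in 0 of the 4 not called, and in 2.44% of 27457 promoters. The other 2 motifs searched matched fewer called members, out of smaller sets. The CArG box, the motif of serum response factor, was in 1 of the 9 called smooth muscle members with a promoter, the lower gene Cnn2, and in 1.64% of all. The HNF1 motif GTTAATNATTAAC was in 0 of the 18 called proximal tubule members and in 1 promoter of all. As written it is so rare that its absence says nothing about these members. The 3 motifs were chosen with the values known, and a match describes letters in a window.

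Those 3 genes were bright in culture. Fcgr3a stood at 8131 and 2734 on the recombined arrays and 580.5, 649, 484 and 680.2 on the E18 arrays, a difference of 2.54 ± 0.32 (limma adjusted p = 4.81e-05). Cd53 stood at 21009 and 11999.5 against 922, 875, 900.5 and 1233 (3.70 ± 0.27). Ctss stood at 20526 and 10796 against 1922, 2115, 1909 and 2015 (2.75 ± 0.20). In each the lower recombined array was above the highest E18 array. Fcgr3a belongs to a family of similar receptor genes whose probes can share signal.

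Receptors of myeloid cells gave some of the widest differences of the comparison. Lilrb4, an inhibitory immunoglobulin-like receptor, was at 24842 and 12828, while the E18 arrays read 52.2, 42.4, 64.3 and 74.8. Adgre1, which encodes the macrophage antigen F4/80, was at 20634 and 7944 against 407, 446, 363 and 584, a difference of 4.19 ± 0.34 (limma adjusted p = 6.63e-07). Cd68, a lysosomal glycoprotein of macrophages, was at 31168 and 11694 against 861, 935, 729 and 634 (4.20 ± 0.34). The groups did not overlap in any of these, and replicate 1 was the brighter culture array in each.

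The receptor for colony-stimulating factor 1, Csf1r, on which macrophages depend, was almost equal on the recombined arrays, at 9141 and 8856, against 1756, 1828, 1882 and 1599 in E18 (2.19 ± 0.17). The leukocyte phosphatase gene Ptprc, or CD45, differed by 3.20 ± 0.28 and the signalling adaptor Tyrobp by 3.36 ± 0.36. The complement genes C1qa, C1qb and C1qc, which macrophages make, differed by 2.09, 1.95 and 1.63. Without recombined replicate 1 none of these 3 was called, C1qa being at 1.29 and C1qc at 1.09, nor was C1qc without E18 replicate 4 (1.58). Gpnmb, a glycoprotein of lipid-laden and bone-resorbing phagocytes, was the only 1 of the 33 brighter on replicate 2, at 77731 and 94610.5 against 2408, 3671, 3065 and 2910.5 (4.72 ± 0.18). Fcrl2, an Fc receptor-like gene outside the list, was at 24822 and 14844 against 262, 723, 618 and 620.2 (4.60 ± 0.27). The members not called were Mrc1, the mannose receptor (1.40 ± 0.21), Cyba (1.02 ± 0.18), Pld4 (0.96 ± 0.31) and Cx3cr1, the fractalkine receptor (0.26 ± 0.26).

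Genes for antigen presentation by MHC class II lay on both sides of E18. Of 8 kept genes 0 were called by limma, 2 had an adjusted p under 0.05, both higher, and the median difference was -0.15, or 0.23 without recombined replicate 2. Their summed signal was 13286 and 8438 on the recombined arrays and 6143 to 8145 over the E18 arrays. Of the 8, 3 were above all E18 arrays on both and 0 below, against 21.0% and 23.2% of all kept probe sets. Cd74, the invariant chain, was at 493 and 427 on the recombined arrays and 670.0, 604, 576 and 466 on the E18 arrays, so the groups overlapped. RT1-DMa, which loads peptides, was the widest at 1.40 ± 0.27, followed by RT1-DMb (0.88 ± 0.23) and Ciita, the class II activator (0.53 ± 0.29). RT1-DMa was called without recombined replicate 2 or without E18 replicate 2, where its E18 signal was highest (2045). Of 8 kept genes of lymphocytes and granulocytes limma called 0, and 1, Kit (-1.01 ± 0.22), had an adjusted p under 0.05. S100a9 of granulocytes (-0.81 ± 0.58) was called lower without recombined replicate 1, and Cd4 was at 0.59 ± 0.35.

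Chemokines, the secreted proteins that draw leukocytes, and their receptors were higher in 12 of 25 kept genes and lower in 0, with a median of 1.55. Ccl2, the monocyte attractant, was at 31273 and 4541 against 30.4, 449, 271 and 629 (4.43 ± 0.56, limma adjusted p = 4.19e-05). Ccl6 was at 14210.0 and 8619 against 378, 899, 682 and 497 (3.72 ± 0.25), and Ccl9 differed by 3.61 ± 0.53. Both Ccl2 and Ccl9 were several-fold brighter on replicate 1 than on replicate 2. Il1rl1, the receptor for interleukin 33, was steadier, at 6202 and 3666 against 260.4, 190.3, 49.7 and 155 (3.56 ± 0.28). Cxcl12, a chemokine of stroma, was the only 1 of the list with an adjusted p under 0.05 in the downward direction (-0.46 ± 0.12), under the 3-fold limit.

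Genes that respond to interferon were called higher in 3 of 24 and lower in 0, while 16 of 24 had an adjusted p under 0.05 in the upward direction (median 0.80). The 3 were Ifitm3, a membrane protein that hinders virus entry (2.26 ± 0.14), the transcription factor Irf8 of myeloid cells (2.19 ± 0.21) and Gbp2, a guanylate-binding protein (2.04 ± 0.22). Without recombined replicate 2 the count was 6 higher and 1 lower. The macrophage signal given above moved with the chemokine and interferon lists, and its part in them was not tested.

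Lipid handling was another function with many higher genes: 9 of 21 kept genes for uptake, carriage and efflux of lipid were called higher and 0 lower, with a median of 0.80. Apoe, the apolipoprotein that macrophages and other cells secrete with lipid, was at 95159.6 and 70473 in culture and 1785, 2604, 1762 and 1577 in E18, and its level at Wk4 was 29861 ± 1719.6 (SD, n = 3). Lpl, which splits triglycerides, was at 36106 and 22954 against 2109, 1879, 2453 and 2194 (3.59 ± 0.20, limma adjusted p = 2.04e-08). Olr1, a scavenger receptor for oxidized lipoprotein, was at 3878 and 2246 against 67.5, 103, 68.2 and 111 (3.17 ± 0.27). In these genes every culture array was above every E18 array, which for Apoe the rule for naming the highest genes required.

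Abca1, the cholesterol exporter, differed by 2.30 ± 0.26, and Apoc1, a small apolipoprotein, by 2.90 ± 0.32. Cholesterol synthesis showed 0 calls by limma among 19 genes, 4 with an adjusted p under 0.05, all higher, and a median of 0.23; the widest were Insig1, a brake on the pathway (1.37 ± 0.17), Cyp51 (0.99 ± 0.21) and Mvd (-0.72 ± 0.28). The lysosome list had 5 of 31 called higher and 0 lower, 22 with an adjusted p under 0.05 upward and a median of 0.81. Its leading members after Ctss were the cysteine proteases Lgmn (2.07 ± 0.19) and Ctsz (1.95 ± 0.23). Ctsz was not called without recombined replicate 1, at 1.47. Smpdl3a, a secreted phosphodiesterase related to acid sphingomyelinase and outside the lists, was at 30319.5 and 15698 against 1116, 813, 1382 and 1323 (3.97 ± 0.24). The summed macrophage signal moved with these lists as well, and its part in them was not tested.

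**Figure D3:**
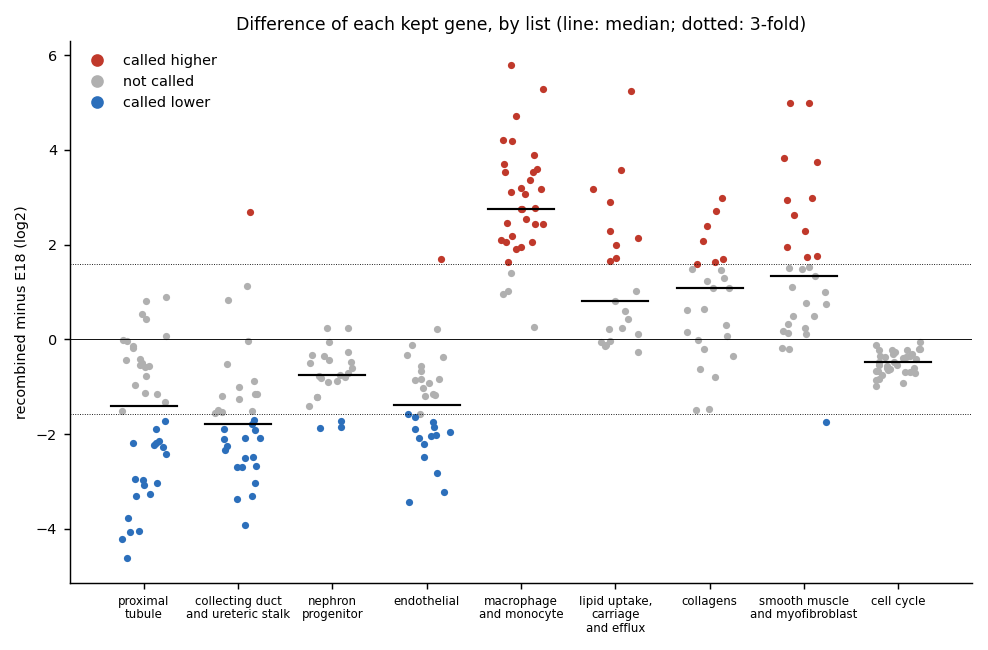
Difference between recombined tissue and E18 for each kept gene of 9 lists, in log2 (y axis); red points were called higher, blue called lower, gray not called, black lines mark list medians and dotted lines 3-fold. The macrophage median is 2.75 and the collecting duct median -1.79, while the 35 cell cycle genes lie between -0.99 and -0.06 with 0 calls.

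Extracellular matrix genes were higher over a broad front. Of 25 kept collagen genes 7 were called higher and 0 lower (median 1.08), and of 44 genes for other matrix proteins and their crosslinking 16 were called higher and 0 lower (median 1.30). The 3 chains of collagen VI, which forms beaded filaments around cells, led the collagens. Col6a3 was at 74352 and 76806 on the recombined arrays and 9370.2, 9912, 9807 and 8374 on the E18 arrays (2.98 ± 0.16, limma adjusted p = 1.5e-08). Col6a1 was at 63524 and 48774 against 7289, 7875, 9184 and 8708 (2.72 ± 0.19), and Col6a2 differed by 2.07 ± 0.24. The values of Col6a3 were nearly equal on both culture arrays and lay far above E18.

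The fibrillar collagens Col1a1 (1.47 ± 0.31), Col1a2 (1.24 ± 0.20) and Col3a1 (1.08 ± 0.16) had adjusted p-values under 0.05 but stayed under 3-fold; Col1a1 was called without recombined replicate 1 (1.80). Col8a1, a short-chain collagen, was called with a difference of 2.39 ± 0.34. Basement membrane collagens did not follow: Col4a1 was at 0.15 ± 0.19 and Col4a2 at -0.63 ± 0.32, neither with an adjusted p under 0.05. The cartilage collagens Col2a1 (-1.50 ± 0.42) and Col9a1 (-1.47 ± 0.29) lay on the other side. Without recombined replicate 2, 2 collagens were called lower, and 1 without E18 replicate 4.

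Among other matrix genes Spp1, the phosphoprotein osteopontin, was at 111481 and 65746 against 10600.1, 9687, 10118 and 9049 (3.09 ± 0.18). Matn2, a matrilin, was at 12449.5 and 19829 against 2513, 1915, 2319 and 1901 (2.72 ± 0.21) and was brighter on replicate 2. Lox, which crosslinks collagen and elastin, was at 29754 and 15210.5 against 2649, 7630.2, 3288 and 3015 (2.41 ± 0.33), with E18 replicate 2 apart from the other E18 arrays. Postn (2.19 ± 0.22), Mfap4 (2.18 ± 0.26), Tnc (1.84 ± 0.31) and Ccn2 (1.78 ± 0.24) were called as well. Fn1, fibronectin, was at 0.70 ± 0.14 and Sparc at 0.89 ± 0.26, under the fold limit. Without recombined replicate 1 the count of 16 was 9, and Tnc (1.52) and Ccn2 were among the calls lost.

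Enzymes that cut matrix, and their inhibitors, were called higher in 5 of 18 kept genes and lower in 1 (median 1.01). Mmp12, the elastase of macrophages, was at 32648 and 10689 against 303, 94.0, 188 and 298 (5.29 ± 0.38). Serpinf1, a secreted serpin that restrains vessel growth, was at 39995 and 31267 against 4793, 3518, 4536 and 3887 (3.01 ± 0.17, limma adjusted p = 2.73e-08). Mmp9, a gelatinase, was at 10691 and 6645 against 1879, 1334, 437 and 389.5 (2.95 ± 0.39). The lower gene was Serpine2, an inhibitor of thrombin and plasminogen activators (-1.87 ± 0.20), whose call was lost without recombined replicate 2. Mmp2 (1.01 ± 0.18) and Mmp14 (1.43 ± 0.16), a pair of collagenolytic enzymes of stroma, had adjusted p-values under 0.05 without reaching 3-fold.

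Contractile genes of smooth muscle and genes of myofibroblasts, matrix-making cells that contract, were called higher in 11 of 29 and lower in 1, with a median of 1.35. Actg2, the enteric and visceral smooth muscle actin, was at 63825 and 28616 against 1148, 1377, 779 and 1129 (4.98 ± 0.33). Myh11, smooth muscle myosin, was at 46165 and 15788 against 1552, 2342, 1416 and 1905 (3.74 ± 0.36, limma adjusted p = 3.25e-06). Cnn1, a regulator of the contractile filament, was at 22163 and 8143 against 488, 791, 841 and 685 (3.84 ± 0.32). These 3 were brighter on replicate 1 and lay above E18 on both arrays, which for Actg2 the rule for naming the highest genes required.

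Myocd, the coactivator that drives smooth muscle genes, was at 11095 and 7856 against 957, 817, 627 and 1590.0 (2.97 ± 0.41). Tagln differed by 2.62 ± 0.29, Itga11, a collagen-binding integrin, by 2.95 ± 0.25 and Mylk, the myosin light chain kinase, by 1.74 ± 0.12. Acta2, the smooth muscle actin used as a general marker, was at 1.35 ± 0.39, under 3-fold, at 39544 and 34982 against 17601, 21545, 16009.8 and 7175. The lower gene was Cnn2, a calponin of non-muscle cells (-1.75 ± 0.24). Rbm24, an RNA-binding protein of muscle splicing outside the list, was at 15579 and 13253 against 689, 418, 279.6 and 647 (4.27 ± 0.23).

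Genes of skeletal muscle, cartilage and bone were called higher in 4 of 14 and lower in 0, and all 4 belong to skeletal muscle. Myog, a myogenic transcription factor, was at 2031 and 2759 against 405, 659, 582 and 475 (1.73 ± 0.22). The others were Myl11 (1.94 ± 0.31), the embryonic myosin Myh3 (1.84 ± 0.31) and Acta1 (1.79 ± 0.39). Ckm, the creatine kinase of muscle, was at 0.48 ± 0.34 and Ttn at 0.66 ± 0.33, neither with an adjusted p under 0.05. Without recombined replicate 1 Acta1 (0.94) and Myl11 (1.58) were not called and the count was 2; without recombined replicate 2 or E18 replicate 4, 1 gene was called lower. Myog was not called without recombined replicate 2 (1.53). The list's summed signal was 23264 and 21028 in culture and 18270.3 to 22458 in E18, and the part of muscle cells in the contractile list was not tested.

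Neuronal genes differed on both arrays but unequally. Of 21 kept neural and Schwann cell genes 7 were called higher and 0 lower (median 0.78), and 18 of 21 were brighter on replicate 1. Stmn2, a tubulin regulator of growing axons, was at 10651 and 2953 against 380.4, 252, 247 and 358 (3.36 ± 0.37). Prph, an intermediate filament of peripheral neurons, was at 10382 and 2764 against 731, 789, 631 and 640.4 (2.56 ± 0.35), and Gap43, a growth cone protein, at 4886 and 2134 against 307, 474, 525 and 366 (2.36 ± 0.29). Dbh, the enzyme that makes noradrenaline, differed by 1.79 ± 0.31. Snap25 (1.72 ± 0.42) and Tubb3 (1.98 ± 0.41) were among those more than 3-fold apart between the culture arrays. Without recombined replicate 1 the count of 7 was 4, with Dbh at 1.25, Snap25 at 0.84 and Tubb3 at 0.95 not called. The summed signal was 64328 and 30918 in culture and 23031 to 24461 in E18.

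Among growth factors the insulin-like growth factor system moved at several points. Igf1, the growth factor, was at 73619 and 45976 against 3251, 2637, 3362 and 2317 (4.22 ± 0.25, limma adjusted p = 3.99e-08), while its fetal relative Igf2 was at 0.06 ± 0.22. The binding proteins went both ways. Igfbp5 was at 63996 and 59090.1 against 9944, 10404, 10538 and 13047 (2.46 ± 0.14). Igfbp3 was at 16421 and 21994 against 2180.1, 4379.7, 2328 and 1960.1 (2.76 ± 0.30), and E18 replicate 2 stood apart there. Htra1, a protease that cleaves binding proteins, was called higher (2.23 ± 0.20). Igfbp2 was lower, at 11238 and 5046 against 21976, 37792, 21672 and 16114 (-1.59 ± 0.31), and was not called without recombined replicate 2 or E18 replicate 2. In all, 4 of 17 were called higher and 1 lower.

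In the TGF-beta superfamily 5 of 36 genes were called higher and 2 lower, with a median of 0.52. Inhba, the subunit of activin A, was at 23666 and 12466 against 185, 252, 304 and 404 (4.98 ± 0.26). The lower genes were both bone morphogenetic proteins. Bmp4, a stromal ligand around the duct, was at 1045 and 1829 against 6759.8, 7507, 7034 and 4627 (-2.00 ± 0.24), and Bmp7, which keeps nephron progenitors alive, was at 1298 and 1699.7 against 6717, 7045, 6047 and 4726 (-1.85 ± 0.20). Id1 (-1.47 ± 0.25) and Id3 (-0.98 ± 0.14), a pair of target genes of these ligands, had adjusted p-values under 0.05 downward without reaching 3-fold. Without recombined replicate 2 the count of higher genes was 8 and Id1 was called lower (-2.14).

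Of 21 Wnt ligands and antagonists only Sfrp4, a secreted antagonist, was called, at 1672 and 2073 against 282, 92.8, 336 and 305 (2.05 ± 0.34). Wnt5a was at 1.49 ± 0.22 and Dkk3, an antagonist family member, at 1.35 ± 0.18; without recombined replicate 2 or E18 replicate 2 the list had 2 higher calls. Wnt4, the signal by which mesenchyme becomes epithelium, was at 9779 and 14381 on the recombined arrays and 7691, 5493, 7631 and 5989.9 on the E18 arrays. Both culture arrays lay above E18, but the difference of 0.81 ± 0.31 had a limma adjusted p of 0.0693. Of 20 FGF and GDNF pathway genes 0 were called by limma and 8 had an adjusted p under 0.05, 7 of them lower, with Etv4, a transcription factor downstream of Ret, at -1.50 ± 0.44, Fgf8 at -1.21 ± 0.33 and Fgfr4 at -1.07 ± 0.22. Leaving out recombined replicate 2 gave 2 lower calls and leaving out E18 replicate 4 gave 1.

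Many genes of the nephron segments were lower in culture. Of 40 proximal tubule genes 19 were called lower and 0 higher, with a median of -1.42, nearly equal on the arrays alone (-1.51 and -1.39). Hnf4a, a nuclear receptor that proximal tubule cells need, was at 37.2 and 30.6 against 5431, 3606, 5469.9 and 4775 (-4.04 ± 0.17, limma adjusted p = 1.03e-09). Slc2a2, the basolateral glucose transporter, was at 18.2 and 30.4 against 4344, 3077, 3639 and 4159 (-3.78 ± 0.17). Both were below the 40th percentile on each culture array. The scaffold Pdzk1 (-4.62 ± 0.17) and the transporter Slc7a13 (-4.21 ± 0.19) led this list, and Fbp1 of glucose synthesis followed (-4.06 ± 0.32).

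Receptors for protein uptake were lower as well. Lrp2, or megalin, was at 808 and 2445 against 17539, 14085, 18122 and 17102 (-3.30 ± 0.26). Its partner Cubn was at 320.0 and 87.4 against 3486, 3062, 3409 and 4011 (-3.03 ± 0.25). Cubn, unlike Lrp2, lay below the 40th percentile on both culture arrays. Other proximal genes lay near E18: the water channel Aqp1 was at -0.15 ± 0.25 and the peptidase Anpep at -0.17 ± 0.14, and the peptidase Mme was higher under the fold limit (0.89 ± 0.20). Outside the lists, Cyp2c23, an arachidonic acid epoxygenase of the kidney, was at 27.4 and 349.9 against 6893, 3851, 5536 and 5017 (-3.67 ± 0.25). Aldh1a1, which makes retinoic acid, was at 2774 and 4731 against 59191, 52236, 55940.4 and 50892 (-3.81 ± 0.16). Defb1, an antimicrobial peptide of distal epithelium, was at 166 and 62.1 against 4961, 6597, 5043 and 5294 (-3.90 ± 0.19).

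The loop of Henle and distal tubule had 9 of 22 genes called lower and 0 higher (median -1.07). Slc12a1, the cotransporter of the thick ascending limb, was at 156 and 75.3 against 18218, 13510.5, 16944 and 15292. Irx1 (-2.90 ± 0.17) and Calb1, a calcium buffer of the distal nephron (-2.68 ± 0.24), were next. Pou3f3, a transcription factor of the developing loop, was at 1547 and 4207 against 16205, 15465, 14021 and 14058 (-2.41 ± 0.25). Umod, the uromodulin gene of the mature loop, showed a difference of -0.09 ± 0.25.

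S100g, the small vitamin D-dependent calcium-binding protein of calcium-transporting epithelia, had the widest upward difference of any named gene. It was at 45719.7 and 14079 on the recombined arrays and 31.1, 165, 161 and 14.1 on the E18 arrays, and at 1571 ± 167 (SD, n = 3) in Wk4 kidney. Its companions in calcium transport did not move with it: the channels Trpv5 (0.52 ± 0.23) and Trpv6 (-0.38 ± 0.24) and the vitamin D receptor Vdr (0.01 ± 0.26) had no adjusted p under 0.05. In the list of water, ion and vitamin D handling 1 of 20 was called higher and 2 lower, the latter Calb1 and Pth1r, the parathyroid hormone receptor (-1.81 ± 0.18).

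Collecting duct and ureteric stalk genes had the greatest share of lower calls: 18 of 33 were lower and 1 higher, with a median of -1.79. Aqp2, the vasopressin-regulated water channel, was at 81.8 and 73.4 against 8106, 1619.7, 6967 and 6619.7 (-3.93 ± 0.42). Mal, a membrane sorting protein, was at 59.6 and 268 against 3254, 5004, 3941 and 3637 (-3.31 ± 0.22), and Slc4a1, the anion exchanger of intercalated cells and red cells, at 28.6 and 43.8 against 2611, 4457, 2748 and 2229 (-3.37 ± 0.22). Epithelial identity genes were lower but well above the dim range. Cdh1, or E-cadherin, was at 1686 and 3335 against 13411, 14309, 14758 and 10617 (-2.34 ± 0.20) and Epcam at 3672 and 4872 against 23160.4, 18377, 17459 and 17263 (-2.09 ± 0.14).

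The 1 higher gene went against its list on both arrays. Hsd11b2, the enzyme that shields the aldosterone receptor from glucocorticoid, was at 29019.8 and 26184 on the recombined arrays and 3595, 3475, 5108 and 4213 on the E18 arrays (2.69 ± 0.16, limma adjusted p = 4.19e-08). Gata2 was higher under the fold limit (1.13 ± 0.27), and the count was 2 without recombined replicate 1. The sodium channel subunit Scnn1a was at -0.89 ± 0.24 and the vasopressin receptor Avpr2 at -0.52 ± 0.24. In the urothelium list 5 of 21 were called lower, with Aqp3 (-3.04 ± 0.22) and the desmosome gene Dsp (-2.37 ± 0.17) ahead, and 1 higher. That gene, Psca, a surface antigen of bladder and prostate epithelium, was at 3551 and 1818 against 54.7, 121, 117 and 58.2 (2.98 ± 0.28). The count of higher genes there was 2 without recombined replicate 2 or E18 replicate 2.

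**Figure D4:**
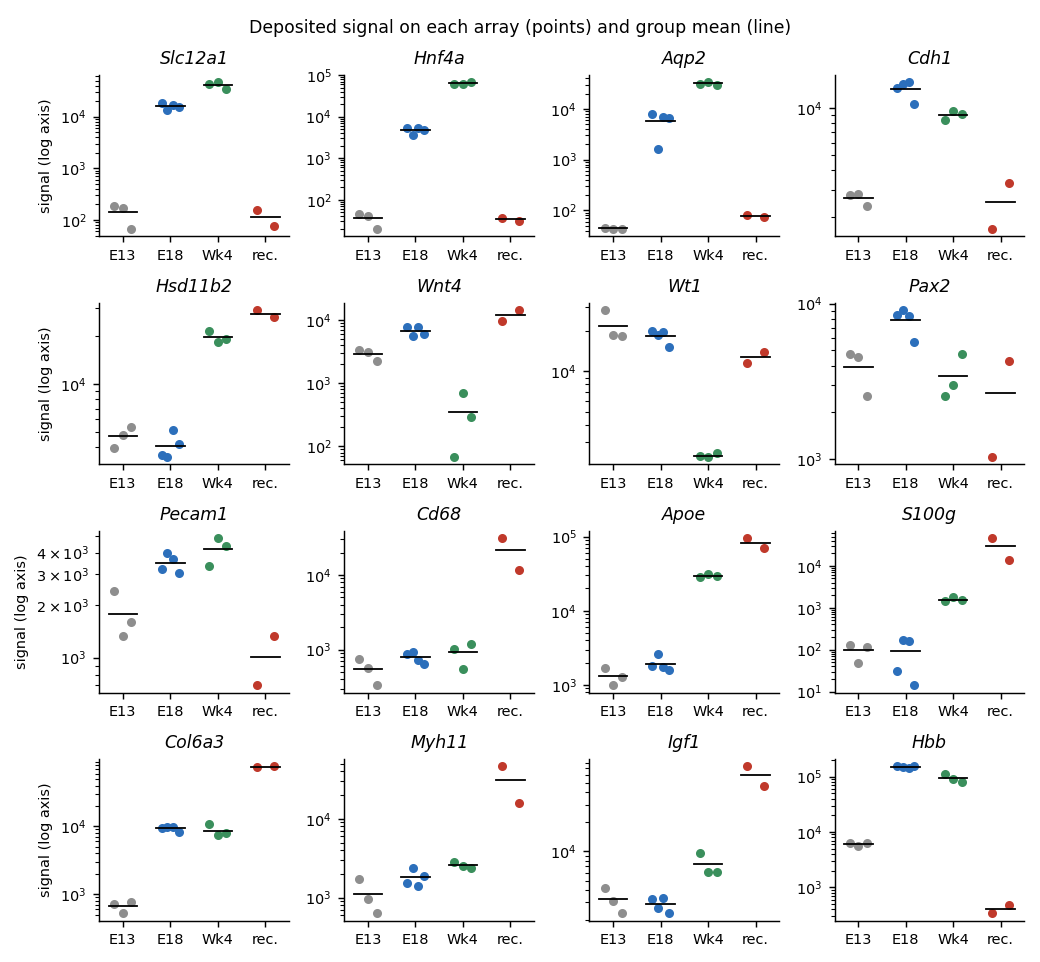
Deposited signal (log y axis, its range differing by panel) of 16 genes on each of the 12 arrays, with points for arrays and lines for group means; rec. stands for recombined tissue. Hnf4a and Slc12a1 are dim on both recombined arrays, Hsd11b2, Apoe, Cd68, Col6a3, Myh11, Igf1 and S100g lie above all 4 E18 arrays, and Pax2 differs between the recombined arrays.

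Progenitor and bud tip genes mark the tissue that has not yet differentiated. Of 23 nephron progenitor genes 3 were called lower and 0 higher (median -0.75), and of 14 bud tip genes 3 and 0 (median -0.79). An adjusted p under 0.05 in the downward direction was found in 14 of the 23 and 7 of the 14, and upward in 0 of either. Wt1, a transcription factor of mesenchyme and podocytes, was at 11563 and 13911 against 19823, 18495, 19544 and 15039 (-0.51 ± 0.17). Gdnf, the mesenchymal signal for branching, was at -0.79 ± 0.31 and Ret, its receptor in the bud tip, at -0.49 ± 0.18, neither with an adjusted p under 0.05. Sall1, a progenitor transcription factor, was at -0.88 ± 0.24, under the fold limit.

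Several of these calls rested on 1 culture array. Pax2, needed in bud and nephron alike, was at 1033 and 4291 against 8470.2, 9095, 8334 and 5689 (-1.72 ± 0.39), and its difference was -0.82 without recombined replicate 1. Lhx1, another transcription factor of both, was at 546 and 2356 against 5685, 5362, 5040.4 and 3305 (-1.78 ± 0.36), or -0.94 without that array. Uncx, a homeobox gene, was at 1912 and 5153 against 15419.8, 15477, 14226 and 6603 (-1.86 ± 0.39), or -1.21 without it; its E18 replicate 4 was far below the others. None of these 3 was called without recombined replicate 1. Both lists then had 1 lower call, and the progenitor list had 5 without recombined replicate 2.

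Genes of the first nephron epithelium and its patterning were called lower in 9 of 29 and higher in 1 (median -1.21). Cldn6, a tight junction protein of embryonic epithelium, was at 195 and 695 against 7919.9, 6325, 6034 and 5041 (-3.28 ± 0.26). Pax8 was at 1503 and 4876 against 15633, 14577, 13519.7 and 10349 (-2.17 ± 0.31), and Jag1, a Notch ligand, differed by -1.59 ± 0.33. Neither was called without recombined replicate 1, where Pax8 was at -1.41 and Jag1 at -1.19 and the list had 6 lower and 0 higher; Jag1 was not called without E18 replicate 4 either (-1.40). Of 26 podocyte genes 6 were lower and 1 higher (median -0.83). Nphs1, nephrin of the slit diaphragm, was at 16.4 and 360.3 against 2082, 3285, 2294 and 2361 (-2.69 ± 0.30), Rhpn1 differed by -2.20 ± 0.23 and Podxl, a surface sialoprotein, by -2.10 ± 0.20. Synpo, an actin partner in podocyte foot processes, was at 0.36 ± 0.15 with no adjusted p under 0.05.

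The higher gene in both lists was Cldn5, a tight junction protein of endothelium and podocytes, at 37047 and 28787 against 10190.4, 10411, 9509 and 9680.0 (1.69 ± 0.23). It was not called without recombined replicate 1, nor when each array was centred on its median. It was also the only higher gene among 30 endothelial genes, of which 14 were lower (median -1.39). Aplnr, the apelin receptor of sprouting vessels, was at 37.6 and 235 against 4267, 4298, 3757 and 3652 (-3.43 ± 0.27). Plvap, of fenestrated endothelium, was at 173 and 1065 against 8109, 7398, 6670.1 and 5799.7 (-3.23 ± 0.31), and Tek, the angiopoietin receptor, at 297 and 502 against 4179.5, 4694, 4065 and 4695 (-2.82 ± 0.16). Recombined replicate 1 was the dimmer array in all 3.

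Pecam1, the endothelial adhesion molecule, was at 695 and 1335 against 3224, 3962, 3683 and 3064 (-1.59 ± 0.24), and Kdr, the main receptor for vascular endothelial growth factor, at 1429.5 and 4539 against 7769, 10311, 9159 and 10361 (-1.75 ± 0.29). Vegfa itself was at 0.11 ± 0.27 and Vwf at -0.12 ± 0.33, neither with an adjusted p under 0.05. Vwf was dim, at 327 and 571 against 381, 851, 414 and 435, and lay below the 40th percentile on both recombined arrays. Without recombined replicate 1 the endothelial count was 8 lower, and Kdr (-0.999) and Pecam1 (-1.22) were not called. Pecam1, close to the fold limit, was also not called without E18 replicate 2 (-1.53) or E18 replicate 3 (-1.56). Summed endothelial signal was 63148 and 72328 in culture and 105104 to 134042 in E18. Of 17 genes of pericytes, mesangium and renin cells only Cnn1 was called; Gata3 was at -1.52 ± 0.27 and Des at 1.51 ± 0.21. Without recombined replicate 2 that list had 3 higher and 1 lower, and without E18 replicate 4 it had 1 lower.

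Red cell genes were lower in culture. Hbb, the adult beta globin and the lowest of the named genes, was at 338 and 478 against 152343, 151046, 142285 and 153218, a difference of -7.79 ± 0.13 (limma adjusted p = 1.89e-14). The embryonic globin Hbe1 was at 932 and 1614 against 59906, 21106, 39885 and 47485, and Hbg1 at 45.3 and 37.6 against 2506, 4502, 3372 and 4060.4. Alas2, the first enzyme of heme synthesis in red cells, differed by -4.10 ± 0.18 and Ahsp, the alpha globin chaperone, by -3.61 ± 0.36. Of 16 kept erythroid genes 8 were lower and 0 higher (median -1.58), with summed signals of 36021 and 32196 in culture and 231876 to 266558 in E18. Globin genes resemble each other, and probes can share their signal. The transferrin receptor Tfrc, which other growing cells also use, was on the other side (0.80 ± 0.15).

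Stromal genes were divided. Of 26 kept genes 4 were called higher and 1 lower, with a median of 0.09. Smoc2, a matricellular calcium-binding protein, was at 37562 and 43181 against 5206, 4856, 4362 and 2893 (3.17 ± 0.30). Fibin differed by 2.44 ± 0.26 and Penk, the enkephalin precursor, by 2.19 ± 0.47. Tcf21, a transcription factor of stroma and podocytes, was lower under the fold limit (-1.47 ± 0.21), as was Mdk, the growth factor midkine (-1.51 ± 0.23). The called lower gene was Cdkn1c, an imprinted cell cycle inhibitor, at 20124 and 28619.8 against 88399.7, 92222, 91101 and 98306 (-1.93 ± 0.18). Without recombined replicate 2, 3 stromal genes were lower, Tcf21 (-1.93) and Mdk (-2.12) being the added ones.

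The imprinted genes held Cdkn1c and 2 further calls among 14. Meg3, a long noncoding RNA made from the maternal chromosome, was at 16081 and 15139 against 1453, 2435, 1043 and 945 (3.26 ± 0.38, limma adjusted p = 2.2e-05). Both culture arrays were close to each other and far above E18. Mest was at 11559 and 22768 against 60382, 71459, 59717 and 35126 (-1.74 ± 0.31) and was not called without recombined replicate 1 (-1.26). H19 (-0.00 ± 0.27) and Dlk1 (0.98 ± 0.41), the latter from the same imprinted cluster as Meg3, had no adjusted p under 0.05.

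Cell division genes were called in 0 of 35 by limma, with 14 under an adjusted p of 0.05, all lower, and a median of -0.49. The widest were Birc5 (-0.99 ± 0.22), which guards chromosome separation, the phosphatase Cdc25b (-0.93 ± 0.16) and the helicase subunit Mcm7 (-0.87 ± 0.11). Mki67, the proliferation antigen, was at -0.20 ± 0.23. Fatty acid oxidation had 2 of 28 called lower and 0 higher (median -0.42). Ppargc1a, a coactivator that builds mitochondria, was at 841 and 748 against 3943, 4823, 3956 and 4847 (-2.12 ± 0.16), and Acsm2 differed by -2.06 ± 0.28. Ehhadh of peroxisomes was at 19.8 and 31.2 against 363, 349, 541 and 530 (-1.26 ± 0.21). It stayed under the fold limit on this scale, where the added 271 shrinks differences between dim signals.

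Glycolysis and hypoxia genes separated the culture arrays from each other. The list median was 0.38 and -0.61 on replicates 1 and 2 taken alone, and replicate 1 was the brighter in all 32 of 32 kept genes, against 44.5% of all kept probe sets. Tpi1, an enzyme of glycolysis, was at 36321 and 8679 in culture and 35918, 67646, 38477 and 39684 in E18. Adm, or adrenomedullin, induced by low oxygen, was at 3755 and 378 and 531, 801, 687 and 328. Tpi1 was inside the E18 range on replicate 1 and below it on replicate 2, whereas Adm was above that range on replicate 1 and inside it on replicate 2. E18 replicate 2 was the brightest E18 array in 30 of the 32 genes, against 30.2% of all kept probe sets.

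Only Hmox1, heme oxygenase, was called in that list (1.95 ± 0.26), and not without recombined replicate 1 (1.45). The neuronal enolase Eno2 (1.48 ± 0.35) and Eno1 (-1.19 ± 0.26) lay on opposite sides under the fold limit. Without recombined replicate 1 the list had 0 higher and 3 lower calls, without recombined replicate 2 it had 6 higher, and without E18 replicate 2 it had 2 higher.

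**Figure D5:**
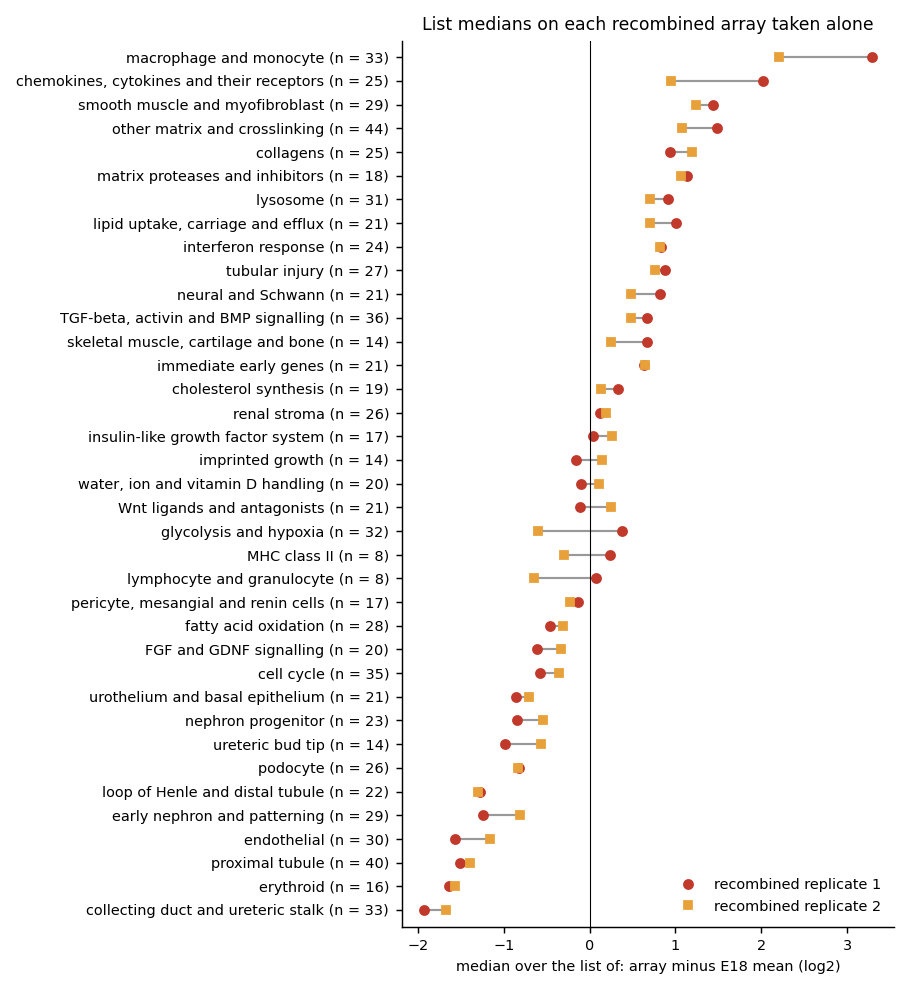
Median difference from the E18 mean of the kept genes in each of 37 lists, in log2 (x axis), on recombined replicate 1 (circles) and replicate 2 (squares) taken alone; gray lines join the arrays. The arrays lie on the same side of 0 in most lists, and glycolysis and hypoxia has medians of 0.38 and -0.61.

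Genes of tubular injury were called higher in 9 of 27 and lower in 1 (median 0.80). Gpnmb, Ccl2 and Lgals3, a lectin that macrophages also express (3.54 ± 0.24), led, and macrophage genes make up part of this list. Spp1, given above, and the hyaluronan receptor Cd44 (2.02 ± 0.38) were also called. Tnfrsf12a (1.55 ± 0.22), Timp1 (1.31 ± 0.18) and Icam1 (1.24 ± 0.29) had adjusted p-values under 0.05 upward without reaching 3-fold, while Lcn2 was at 0.58 ± 0.24 and Clu at -0.05 ± 0.16, neither with an adjusted p under 0.05. Cd44 was not called without recombined replicate 1 (1.43), where the list had 6 higher. Icam1 and Tnfrsf12a were called without recombined replicate 2, where it had 12, and Tnfrsf12a also without E18 replicate 2 or E18 replicate 3. Sprr1a, a cornified envelope protein, was lower (-1.90 ± 0.43). Reg3b, a secreted lectin of inflamed epithelia outside the list, was at 6521 and 5756 against 214, 154, 38.9 and 184 (3.95 ± 0.35). Of 21 immediate early genes, which answer stimulation within minutes, 4 were higher and 0 lower: Egr2 (2.77 ± 0.23), Fos (2.23 ± 0.24), Klf4 (1.88 ± 0.16) and Egr1 (1.74 ± 0.29). Egr1 was not called without recombined replicate 2.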

How the data were processed

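Per the labels' protocols, total RNA was labelled as biotinylated cRNA by the Affymetrix protocol. The authors deposited a linear intensity for each probe set. Per the submitters' processing notes these came from GCOS, whose version and settings were not given in the sources used here. On all arrays, the trimmed mean (without the lowest and highest 2%) was equal, so a global scaling had been applied, which hides a change of total RNA per cell; array medians ran from 799 to 1020. No arrays were identical, and arrays limit the precision by their number.

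Values were used as log2(signal + 271), 271 being the 25th percentile of all values, and this shrinks differences between dim signals. The 57 controls were left out, and 22599 probe sets were kept that exceeded the 40th percentile of their array on 2 or more arrays. Of 31042 probe sets, 20826 had 1 symbol, 436 several and 9780 none, per the platform annotation; 20758 matched RefSeq. Genes with several kept probe sets, 3451 of 11920, were represented by the brightest. limma 3.58.1 (R 4.3.3) fitted all 12 arrays in 1 model with an intensity trend (8 residual degrees of freedom), with two-sided tests and Benjamini-Hochberg adjustment over all kept probe sets. On simulated data for this comparison (21150 probe sets), 96% of 4-fold, 100% of 8-fold and 98% of 16-fold changes were called, and 2 unchanged probe sets. Of 2-fold changes, which lie under the fold limit, 0% were called. The simulation gave all groups the same spread and placed no changes in the dimmest probe sets, so it gives no rate for those.

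The comparison, gene lists and promoter motifs were chosen with earlier results of these data known, and a pair of wrong symbol matches in the lists was corrected after values were seen. Text names the 15 highest and 15 lowest called genes whose groups do not overlap and that pass 3-fold on each recombined array, and the 3 widest members of each list; other list members are examples. Of the markers, Six2, Cited1, Foxd1 and Cdh5 were not analysed here. Alternatives covered the pseudocount, scaling, filter, variance model, arrays, replicate number, fold and probe set per gene.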

Additional observations from a re-analysis of the deposited data

Results flagged for a closer look

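In 9 of the 114 named genes 1 E18 array stood apart from the other 3 by Dixon's ratio, where chance alone gives about 1 in 20 groups. Of these, 6 concerned E18 replicate 2, 2 replicate 4 and 1 replicate 1. E18 replicate 2 was highest for Tpi1 of glycolysis (67646.5, the others 35918 to 39684), Lox (7630.2, the others 2649 to 3288), Igfbp3 (4379.7, the others 1960.1 to 2328), Dkk3 (3332, the others 2606 to 2702) and RT1-DMa (2045, the others 875 to 1055). It was lowest for the brush border scaffold Pdzk1 (5752, the others 8340.2 to 8826). E18 replicate 4 was lowest for the homeobox gene Uncx (6603, the others 14226 to 15477) and highest for the desmosome gene Dsp (7489.7, the others 6808 to 6905). E18 replicate 1 was lowest for Cd4 (90.5, the others 578 to 675). The calls of Lox, Igfbp3, Pdzk1, Dsp and Uncx held without the E18 array that stood apart.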

How the results depend on the processing

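Of the 114 genes that the naming rule picks, none changed sign while called, and 81 kept their side of the threshold under all alternatives run for single genes. Only 107 of the 114 passed the 60th percentile filter, and the rest were not compared under it. The median changed sign under at least 1 alternative in 9 of 37 lists: MHC class II, lymphocyte and granulocyte, glycolysis and hypoxia, Wnt, water and ion handling, imprinted, stromal, and insulin-like growth factor genes, and those of muscle, cartilage and bone, whose 0.50 was -0.17 under the 60th percentile filter. Glycolysis and hypoxia went from 1 higher and 0 lower to 0 and 3 without recombined replicate 1. Median centring left 4 of 7 collagens and 3 of 5 lysosome genes called higher. Without a pseudocount 728 probe sets were lower (866 higher), with 4 times the pseudocount 287 were higher and 131 lower, and at 2-fold 1409 and 1142, against 618 and 377. The single arrays, 1307 and 947 probe sets at 3-fold, gave 2397 and 2185 without a pseudocount and 568 and 336 with 4 times the pseudocount; these alternatives act on dim probe sets by construction. Centring each array on its median moved the median of all differences to -0.11 and gave 542 higher and 456 lower; quantile normalization gave 595 and 418. Leaving out 1 array gave 557 to 784 higher and 369 to 505 lower, with the extremes of the higher counts, and the greatest lower count, at the recombined arrays; the lone remaining recombined array is then assumed to vary like the other groups. With 4 times the pseudocount 20 of the 114 lost their call. Of all 225 called list members and rule-named genes, 47 lost it without recombined replicate 1 and 9 without recombined replicate 2, against 2 to 6 without 1 E18 array; those named above are marked there. For 234 higher calls E18 signals below the 40th percentile limit the size of the fold.

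The labels do not say that replicate numbers pair the samples. The residuals of same-numbered arrays correlated at -0.10 for number 1 and -0.08 for number 2. With only 2 recombined arrays their residuals mirror each other, so these values cannot settle whether the samples were paired. With the replicate number as a block, 635 probe sets were higher and 413 lower, 941 of them among the 995 called without it.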
